A study of Mus musculus with 12 samples.

Results

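Serpins are a family of proteins that trap proteases. The 58 serpin genes described here are the rows of the deposited table whose symbol is Serpin followed by a letter and a digit and whose pathway text does not name the complement and coagulation cascades, out of 56691 genes in all. A further 11 serpin genes with that pathway text are not included. The members were chosen by name and annotation, and the deposited description of all 58 calls them peptidase inhibitors. They are described across 12 RNA-seq libraries of mouse ear, all labelled wild type, with 4 libraries in each of 3 groups. Blank ears had no treatment, Model ears were given MC903 (calcipotriol, a vitamin D analogue painted on skin to produce a dermatitis with features of atopic dermatitis), and IsoL ears carry the treatment label Isoliensinine, a plant alkaloid. The labels do not say whether IsoL ears were also given MC903, and no vehicle group is labelled, so effects of the application and of MC903 cannot be told apart. Strain, age, dose and day were not stated in the text read here, and, although the design text speaks of biological replicates, the labels do not tie a library to 1 animal, so a p-value here reflects only how far libraries of a group differ, which may be partly technical.

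A serpin presents an exposed loop that a protease cuts as if it were a substrate. The cut springs the serpin into a new shape and leaves the protease distorted and covalently bound, so each inhibitor molecule is used once. Some family members have lost this activity and serve as hormone carriers or chaperones. In skin, serpins made by keratinocytes act on the kallikreins, cathepsins and plasminogen activators of the epidermis, whereas those of leukocytes act on elastase, cathepsin G and granzymes.

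Total counts ran from 13884927 to 18771831 per library, and the 15403 genes tested held 99.2% to 99.4% of them. The tested genes were those with an FPKM (fragments scaled to exonic length and library total) of at least 1 in 4 or more libraries. Levels below are TMM-scaled FPKM, which means that the deposited counts were scaled between libraries by TMM factors and divided by exonic length, so that genes can be set side by side. Differences are log2 changes ± SE from edgeR's quasi-likelihood test (4 libraries a group), called at a Benjamini-Hochberg adjusted p under 0.05 over all 15403 genes. As a check of the tissue label, the summed level of 12 basal and suprabasal keratinocyte markers ranged over 8314.70 to 8884.02 for the Blank libraries, 5336.85 to 6419.61 for Model and 11448.75 to 13193.80 for IsoL. Deeper tissue of the ear was also present: 8 skeletal muscle markers summed to 1434.89 to 1575.57 (Blank), 777 to 908 (Model) and 703 to 1070.98 (IsoL), and 8 cartilage markers to 438 to 474, 237 to 255 and 209 to 315. All 8 of each list were called lower in Model and in IsoL than in Blank, beside 34.9% and 34% of all genes. Neutrophil markers, 16 in all, summed to between 90 and 165 in Blank, where Ly6g and Ngp had no counts, between 5752.21 and 6265.00 in Model and between 658 and 890 in IsoL.

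The summed level of the serpins was lower in the treated ears, while single genes went both ways, as given below. The 58 genes summed to 1309.88 to 1321.06 FPKM in the 4 Blank libraries, against 896 to 943 for Model and 956 to 1126.16 for IsoL, and they held 0.347% to 0.351%, 0.231% to 0.241% and 0.251% to 0.281% of all counts. Neither treated group overlapped Blank in this sum, and each library of IsoL was above each of Model. The muscle and cartilage sums above were also lower in both treated groups, and their part in the serpin sums was not tested. In such bulk tissue, fewer cells of a type and less RNA per cell cannot be told apart. The sum was carried by few genes: Serpinb5 alone held 21% of it in Blank, 14.4% in Model and 19.6% in IsoL. Serpinb3b came next in Blank with 11.2%, and Serpinb2 came next in Model with 13.9% and in IsoL with 16.3%. The fall in the sum also rested on few genes. Means in Blank, Model and IsoL were 276, 133 and 204 for Serpinb5. They were 141, 18.8 and 30.1 for Serpinb7 and 137, 27 and 24.8 for Serpinb6d. Most of the difference in the sum lay in the clade B genes of chromosome 1, with sums of 800 to 835 (Blank), 455 to 496 (Model) and 523 to 700 (IsoL). The B1, B6 and B9 families of clade B summed to 196 to 215, 134 to 141 and 130 to 146. Clade A differed least, with sums of 207 to 214 (Blank), 204 to 220 (Model) and 193 to 224 (IsoL), although the genes that made up this sum were not in the same proportions: Serpina3n held 23.7% of it in Blank, 46.5% in Model and 29.3% in IsoL.

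**Figure D1:**
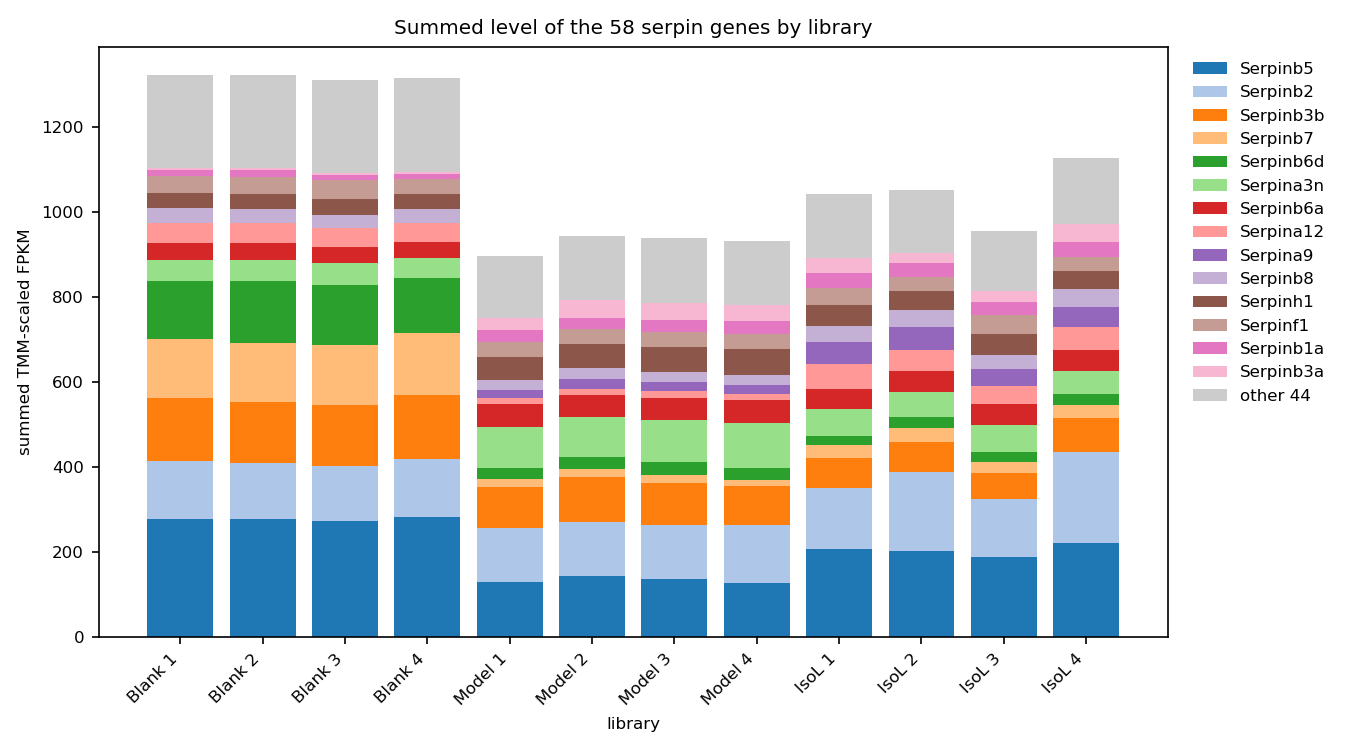
Summed level (TMM-scaled FPKM, vertical axis) of the 58 serpin genes in each of the 12 libraries, stacked by gene. A chosen 14 abundant genes are drawn singly and the other 44 together. The 14 are not strictly the highest: the 44 include Serpina3b and Serpinb12, with means of 46.1 and 42.2 in Blank. The Blank bars reach 1309.88 to 1321.06 and the Model bars 896 to 943, and the bands of Serpinb7 and Serpinb6d that stand wide in Blank are narrow in Model and IsoL.

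Of the 58 genes, 32 passed the filter and were tested. Of the 26 that did not, 8 had no counts in any library, 8 had fewer than 10 in every group and 10 had 10 or more in some group. In Model against Blank, 14 of the 32 were called higher and 17 lower. Over all genes 70.1% were called in this comparison, 35.3% higher and 34.9% lower, so a call by itself was common. Calls of 1 or more on the log2 scale were less so, at 14% of all genes for rises and 7.17% for falls. Among the 32 serpins 8 rose and 11 fell by that much. In IsoL against Model, 13 were called higher and 12 lower, beside 24.1% and 25.1% of all genes (49.3% called in all). Here 4 rose by 1 or more and 2 fell by that much, beside 2.34% and 5.76% of all genes. In IsoL against Blank, 15 were called higher and 15 lower, beside 36.5% and 34% of all genes (70.5% called in all). With TPM scaling, which moved the median of all genes to -0.29, these counts were 9 and 17. By 1 or more, 8 rose and 11 fell, beside 11.6% and 6.11% of all genes. The median log2 change of the 32 was -0.30, -0.11 and 0.03 in the 3 comparisons, beside -0.01, 0.01 and 0.02 over all genes. The comparisons share libraries, so their values are given side by side for each gene and are not independent of each other.

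**Figure D2:**
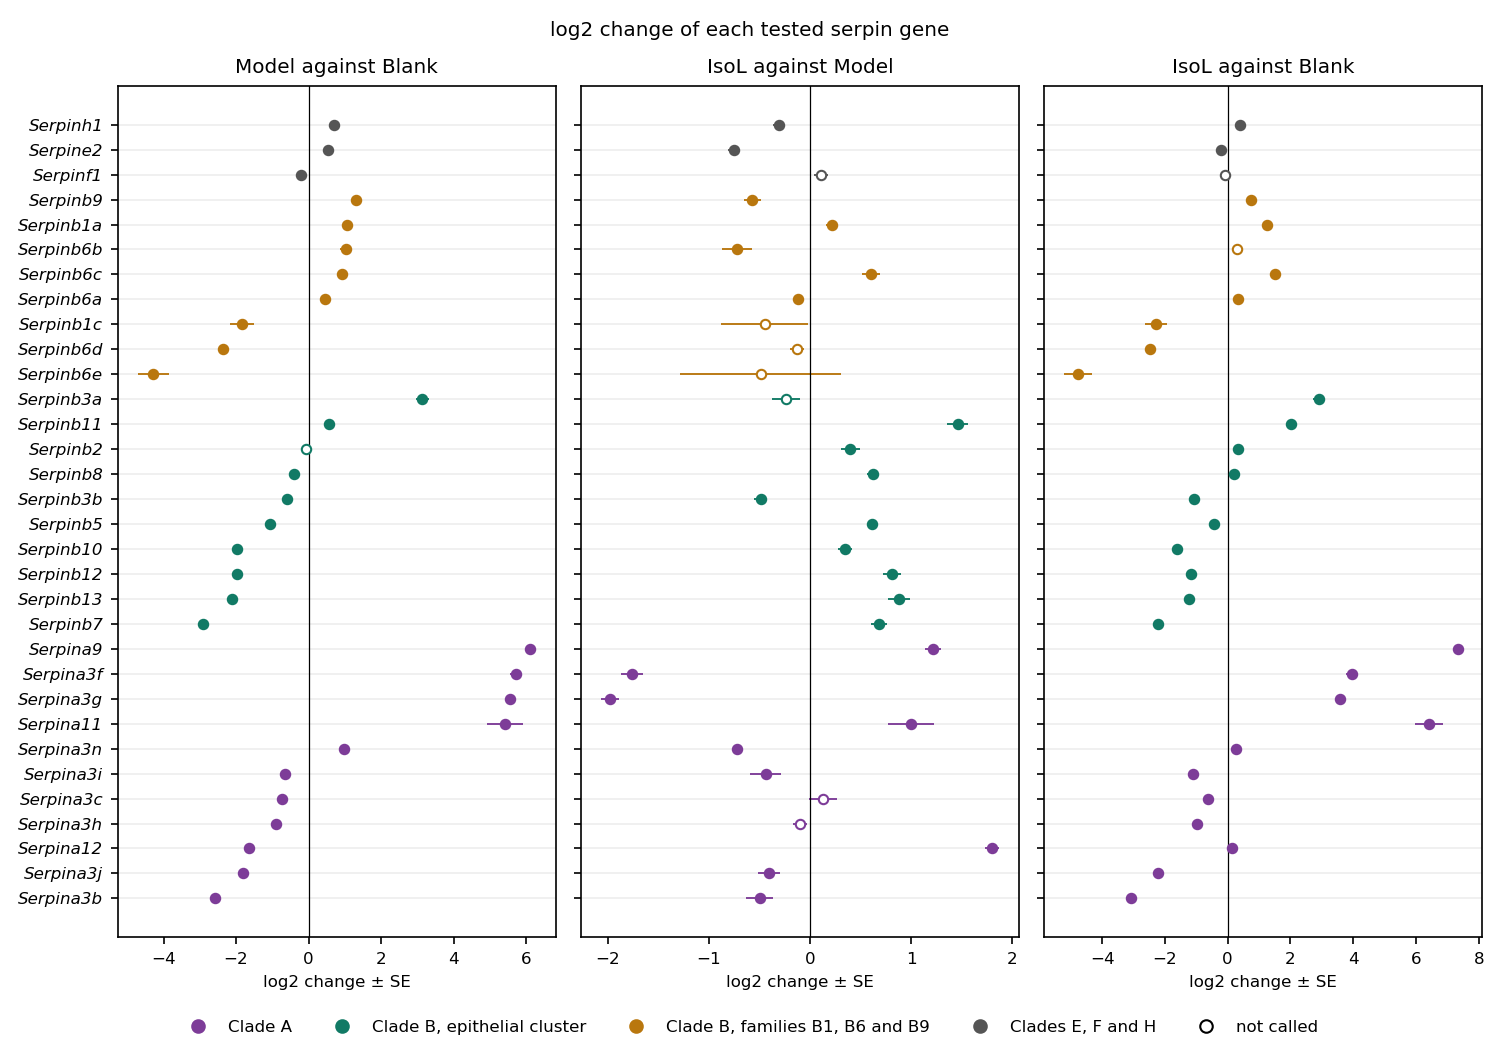
log2 change ± SE (horizontal axis, a different range in each panel) of the 32 tested serpin genes in the 3 comparisons, coloured by clade group, with open circles for genes not called. In Model against Blank the values run from -4.28 for Serpinb6e to 6.12 for Serpina9, and in IsoL against Model from -1.98 for Serpina3g to 1.80 for Serpina12.

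Clade A holds the relatives of antitrypsin and antichymotrypsin. It has 23 members, of which 22 lie together on chromosome 12 (103581045 to 104380588 in the deposited table, whose build was not stated in what was read here) and Serpina7 on X. Of the 11 that passed, 5 were called higher and 6 lower in Model against Blank, with changes from -2.58 to 6.12. Over all genes 35.3% were called higher and 34.9% lower. Serpina9, Serpina3f, Serpina3g and Serpina11 were close to absent in Blank and rose more than any other tested serpin, whereas Serpina3b, Serpina3j and Serpina12 fell 5.98-fold, 3.47-fold and 3.14-fold. Several genes of this clade are best known from liver, so 8 hepatocyte markers were read beside them. They summed to 11.3 to 12.2 (Blank), 185 to 207 (Model) and 87.6 to 118 (IsoL), most of it Hp, haptoglobin, with means of 10, 188 and 101, and Apoa2 and Fgb had no counts in Blank. Only 2 of the 8, Hp and Fga, passed the filter, so the sum speaks for little beyond Hp. Both were called higher in Model against Blank and lower in IsoL against Model. In IsoL against Blank 1 was called higher and 1 lower. Their part in the clade A values was not tested.

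The antichymotrypsin genes of the mouse are an expanded family that corresponds to the single human SERPINA3. Serpina3g (ENSMUSG00000041481, chromosome 12, 104202504 to 104208198) encodes an inhibitor found inside cells that acts on lysosomal cysteine cathepsins, cathepsin B among them. Its level in replicates 1 to 4 was 0.655, 0.648, 0.532 and 0.497 in the Blank libraries, 27.5, 28.5, 27.8 and 26.7 in those of Model, and 7.99, 5.18, 7.63 and 7.29 in those of IsoL. All 4 Model libraries stood far above the other groups, and IsoL lay between with no overlap on either side. Serpina3g rose 47-fold in Model against Blank (log2 change 5.55 ± 0.13, edgeR adjusted p = 8.0e-20) and fell by 1.98 ± 0.09 in IsoL against Model (adjusted p = 4.8e-14). The neighbouring Serpina3f (ENSMUSG00000066363, chromosome 12, 104180803 to 104187388) had the same order. Serpina3f read 0.241, 0.124, 0.18 and 0.254 in the Blank libraries, 10.4, 10.5, 9.62 and 12.2 in those of Model, and 3.57, 2.72, 3.13 and 3.18 in those of IsoL. It rose by 5.72 ± 0.17 in Model against Blank, fell by 1.76 ± 0.11 in IsoL against Model, and stayed above Blank in IsoL (3.96 ± 0.20). Of the 50-base words of their transcripts, 15.5% (Serpina3g) and 10.6% (Serpina3f) occur in another gene, mostly of the same family, and the way the counting treated such reads is not given.

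The promoters of Serpina3f, Serpina3g and Serpina3i are shown because these neighbours share much of their sequence and yet differ in direction. Each window runs from 250 bases before to 50 bases after a RefSeq start (GRCm38.p6). Capitals mark TTCNNNGAA, the core letters bound by STAT factors, in all 3 and GGG, any 3 bases and TTCC, a form of the NF-kB motif, in Serpina3g and Serpina3i.
Serpina3f, chr12:104214294-104214593, plus strand: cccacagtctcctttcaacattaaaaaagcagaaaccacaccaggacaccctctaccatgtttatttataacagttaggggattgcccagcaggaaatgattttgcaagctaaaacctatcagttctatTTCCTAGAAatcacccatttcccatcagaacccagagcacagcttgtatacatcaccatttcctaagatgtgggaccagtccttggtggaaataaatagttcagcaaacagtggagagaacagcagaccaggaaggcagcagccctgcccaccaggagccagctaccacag
Serpina3g, chr12:104235897-104236196, plus strand: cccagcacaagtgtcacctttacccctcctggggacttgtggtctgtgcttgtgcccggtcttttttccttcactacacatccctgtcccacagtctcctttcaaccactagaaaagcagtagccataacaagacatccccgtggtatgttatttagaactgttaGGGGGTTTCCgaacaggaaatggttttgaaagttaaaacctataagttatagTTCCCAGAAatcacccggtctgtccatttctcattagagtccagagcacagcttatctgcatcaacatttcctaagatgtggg
Serpina3i, chr12:104262872-104263171, plus strand: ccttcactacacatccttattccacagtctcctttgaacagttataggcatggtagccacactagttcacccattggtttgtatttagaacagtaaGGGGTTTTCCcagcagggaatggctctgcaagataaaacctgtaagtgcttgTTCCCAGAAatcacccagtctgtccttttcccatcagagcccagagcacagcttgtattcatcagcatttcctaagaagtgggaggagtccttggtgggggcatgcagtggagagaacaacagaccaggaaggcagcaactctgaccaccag
The aligned parts were 83.7% identical between Serpina3f and Serpina3g, 81.7% between Serpina3g and Serpina3i and 82.9% between Serpina3f and Serpina3i. The STAT letters lay at -33 to -25 from the start in Serpina3g, at -102 to -94 in Serpina3i and at -121 to -113 in Serpina3f. The last bases of the Serpina3g window recur inside the Serpina3f window, so its RefSeq start lies further upstream in the shared sequence. These positions depend on the RefSeq start of each gene and do not show that the site itself has moved. TTCNNNGAA was found in 4 of the 9 clade A genes that passed and had a window (Serpina11 is the fourth), beside 9.55% of all 27025 genes with windows, and the NF-kB letters in 4 of the 9 (Serpina12, Serpina3g, Serpina3i and Serpina3n), beside 6.31%. Both motifs were among 11 searched on both strands, and these matches were picked after they were seen. Serpina3i, whose window holds both, was not among the genes that rose: it had 4.03 ± 0.232 in Blank, 2.55 ± 0.139 in Model and 1.87 ± 0.465 in IsoL (mean ± SD, n = 4) and fell by 0.66 ± 0.14 in Model against Blank. Its further difference between IsoL and Model (-0.44 ± 0.15, edgeR adjusted p = 0.0189) was lost without IsoL replicate 2 (0.0749) or without IsoL replicate 4 (0.0557).

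Serpina3n, a secreted inhibitor of granzyme B, cathepsin G and elastase, was the most abundant gene of clade A. Serpina3n read 50.3, 51, 51.1 and 47.2 in the Blank libraries, 97.4, 94.6, 99.1 and 105 in those of Model, and 64.1, 58.1, 63.1 and 54.8 in those of IsoL. Model was above both other groups with no overlap. Serpina3n rose by 0.99 ± 0.05 in Model against Blank and fell by 0.72 ± 0.05 in IsoL against Model. The remaining difference from Blank (0.27 ± 0.05) was not called without scaling factors (0.07, edgeR adjusted p = 0.238) and was -0.06 with TPM scaling. The other antichymotrypsin genes that passed went the other way. Serpina3b, Serpina3j, Serpina3h and Serpina3c stood highest in Blank. Serpina3b read 45.2, 46.5, 44.5 and 48.5 in the Blank libraries, 6.64, 6.25, 9.43 and 8.61 in those of Model, and 4.78, 6.76, 6.02 and 4.41 in those of IsoL. Serpina3j read 23.8, 25.8, 25.7 and 23.6 in the Blank libraries, 6.37, 6.5, 9 and 6.62 in those of Model, and 5.16, 5.84, 5.81 and 4.61 in those of IsoL. In both genes every Blank library was above every treated one, and Model replicate 3 was the highest of its group. Serpina3b fell by 2.58 ± 0.11 in Model against Blank and fell by 0.50 ± 0.13 in IsoL against Model, where the libraries overlapped. Serpina3j fell by 1.80 ± 0.09 and fell by 0.41 ± 0.11 in the same comparisons. Serpina3h (33.5 ± 0.522 in Blank, 18 ± 1.27 in Model, 16.9 ± 1.97 in IsoL) and the less abundant Serpina3c (3.23 ± 0.279, 1.94 ± 0.181 and 2.12 ± 0.217) fell by 0.90 ± 0.07 and by 0.73 ± 0.13 in Model. Their differences between IsoL and Model were not called (-0.10 ± 0.07 and 0.13 ± 0.14). Serpina3h shares 21.9% of its words, mostly with Serpina3i, so its reads may be split between the pair. That share is of 1383 words, whereas its deposited exonic length is 3572 bases, so it covers only part of the counted gene. Its difference between IsoL and Model was called without IsoL replicate 1 (edgeR adjusted p = 0.047) and with TPM scaling (-0.19, limma adjusted p = 0.0406).

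At the other end of the cluster lie Serpina11, Serpina9 and Serpina12 in a row. Serpina12 (ENSMUSG00000041567, chromosome 12, 103995028 to 104010702) encodes vaspin, an inhibitor of kallikrein 7 first described in fat. Serpina12 read 46.9, 47.5, 44.8 and 45.9 in the Blank libraries, 14.5, 15.3, 15.1 and 14.1 in those of Model, and 58.4, 50.7, 42.6 and 53.9 in those of IsoL. Model was low and separate from both other groups, and IsoL overlapped Blank. Serpina12 fell by 1.65 ± 0.07 in Model against Blank and rose by 1.80 ± 0.07 in IsoL against Model. Its difference between IsoL and Blank (0.15 ± 0.07, edgeR adjusted p = 0.0455) did not hold: it was lost without any 1 library other than Model replicate 4 and IsoL replicate 3, and was below 0 without scaling factors (-0.04) and with TPM (-0.19) or quantile (-0.0025) scaling. Klk7, the target of vaspin, rose by 1.52 ± 0.06 in Model against Blank and by 1.03 ± 0.06 in IsoL against Model.

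Serpina9 (ENSMUSG00000058260, chromosome 12, 103961002 to 103980014), known in humans from germinal centre B cells, had the largest rise of the 32 serpins in Model against Blank. Replicates 1 to 4 read 0.3, 0.34, 0.209 and 0.332 in the Blank libraries, 17.9, 22, 21 and 21.6 in those of Model, and 52.2, 53.4, 38.9 and 47.2 in those of IsoL. The order was Blank, Model, IsoL, with no overlap between any pair of groups. Serpina9 was 69.3-fold higher in Model than in Blank (log2 change 6.12 ± 0.15, edgeR adjusted p = 8.5e-20) and a further 2.32-fold higher in IsoL (1.22 ± 0.08, adjusted p = 2.3e-11). The rise in Model against Blank was smaller on scales with a pseudocount, which understate the change of low genes. Its neighbour Serpina11 had 3 counts in all of Blank, 129 in Model and 290 in IsoL. The count ratio was 50.1 in Model against Blank (95% counting interval 16.8 to 246) and 2.01 in IsoL against Model (1.63 to 2.49), and the fitted change in Model against Blank, 5.42 ± 0.51, was 6.34 without Blank replicate 4, where the highest Blank value lay. Of its words 35.7% also occur in Gm28577, a predicted gene with 1 count in all.

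**Figure D3:**
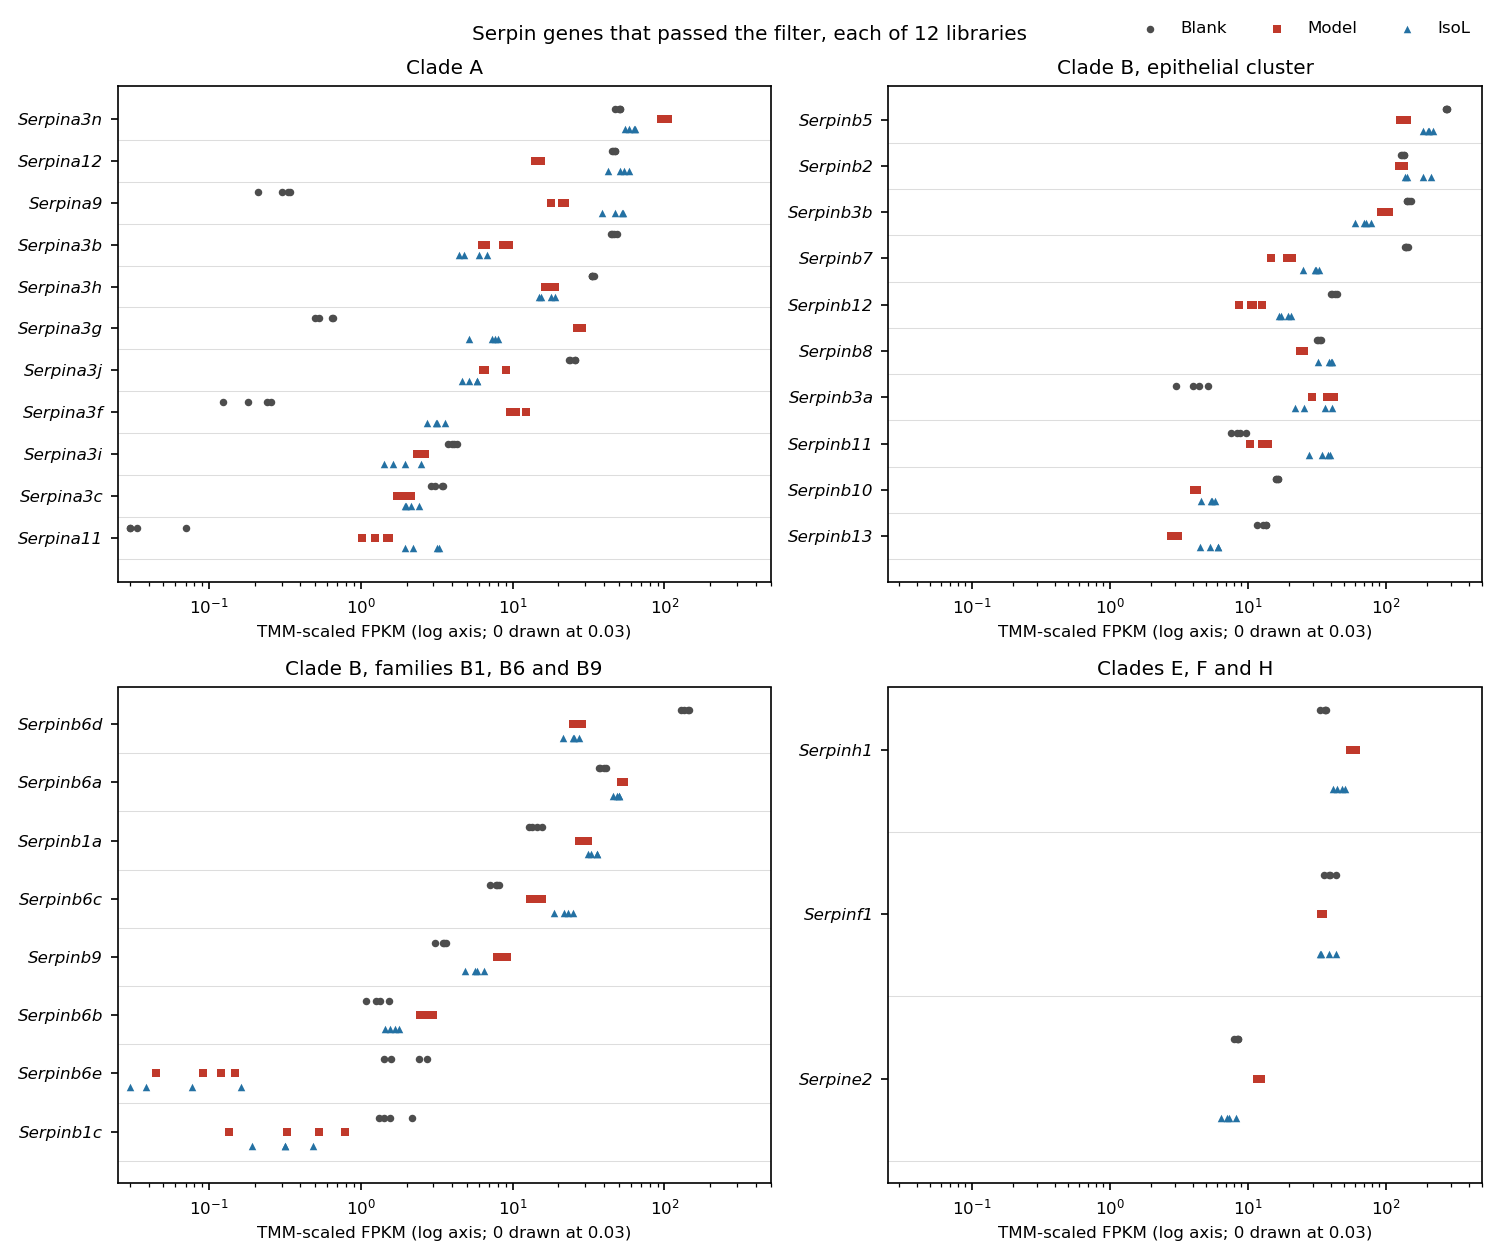
Level (TMM-scaled FPKM, log axis, 0 drawn at 0.03) of each serpin gene that passed the filter, with 1 point per library in Blank (circles), Model (squares) and IsoL (triangles), in 4 panels by clade group and ordered by the highest group mean. Serpina9, Serpina3g and Serpina3f lie below 1 in all Blank libraries and above 2 in all others, whereas all Blank points of Serpinb7 and Serpinb6d lie above 100.

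The clade B genes of chromosome 1 (12 genes, 106788903 to 107538214) encode serpins that mostly stay inside cells, many of them typical of stratified epithelium. They were grouped by symbol and not by the cells that express them. Of the 10 that passed, 7 fell in Model against Blank, 2 rose and 1, Serpinb2, was not called (median -0.81). In IsoL against Model 8 rose, 1 fell and 1 was not called (median 0.61). Over all genes 34.9% fell and 35.3% rose in Model against Blank, and 24.1% rose and 25.1% fell in IsoL against Model. Of 12 basal and suprabasal keratinocyte markers 8 fell and 4 rose in Model against Blank and all 12 rose in IsoL against Model. All 8 activated keratinocyte markers rose in Model, and 6 rose and 2 fell in IsoL against Model. Their part in the serpin values was not tested.

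Serpinb5 (ENSMUSG00000067006, chromosome 1, 106788903 to 106811078) encodes maspin, an epithelial serpin that does not inhibit proteases in the usual way, and was the most abundant serpin in every group. Serpinb5 read 277, 276, 272 and 281 in the Blank libraries, 128, 142, 137 and 127 in those of Model, and 206, 202, 187 and 221 in those of IsoL. The 3 groups did not overlap, with Blank highest and Model lowest. Serpinb5 fell by 1.05 ± 0.05 in Model against Blank and rose by 0.61 ± 0.05 in IsoL against Model (edgeR adjusted p = 4.5e-14 and 1.5e-09). Serpinb7 (ENSMUSG00000067001, chromosome 1, 107327385 to 107380419), whose loss in humans causes a thickening of the skin of palms and soles, had the largest fall of the group. Serpinb7 read 139, 140, 140 and 145 in the Blank libraries, 20.2, 19.3, 20.9 and 14.9 in those of Model, and 30.7, 32.9, 25.2 and 31.4 in those of IsoL. It was 7.51-fold lower in Model than in Blank (log2 change -2.91 ± 0.08) and rose by 0.68 ± 0.08 in IsoL against Model, where it was 4.69-fold below Blank. Serpinb12 and Serpinb13, neighbours of Serpinb5, had the same order. Serpinb12 read 40.6, 43, 40.5 and 44.8 in the Blank libraries, 12.8, 10.9, 10.6 and 8.66 in those of Model, and 19.8, 17.5, 16.9 and 20.7 in those of IsoL. Serpinb13 read 13, 11.8, 13.6 and 13.6 in the Blank libraries, 3.14, 2.99, 3.08 and 2.81 in those of Model, and 5.3, 6.08, 4.56 and 6.08 in those of IsoL. In each, no library of a group overlapped another group. Serpinb12 fell by 1.98 ± 0.08 in Model against Blank and rose by 0.81 ± 0.09 in IsoL against Model, and Serpinb13, whose human counterpart inhibits cathepsins L and K, fell by 2.11 ± 0.10 and rose by 0.88 ± 0.11.

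Serpinb10 and Serpinb2 are the pair whose genes overlap by 6452 bases on the same strand, so reads from the overlap may have been left out or assigned to either. Serpinb10 read 16.6, 16.1, 16.2 and 16.7 in the Blank libraries, 4.22, 4.09, 4.28 and 4.25 in those of Model, and 5.78, 5.47, 4.63 and 5.55 in those of IsoL. Blank stood apart from both treated groups, and IsoL was above Model. Serpinb10 fell by 1.96 ± 0.07 in Model against Blank and rose by 0.35 ± 0.07 in IsoL against Model. Serpinb2, an inhibitor of urokinase, had 134 ± 3.7 in Blank, 129 ± 4.05 in Model and 170 ± 36.3 in IsoL. The difference of Model from Blank was not called (-0.06 ± 0.09, edgeR adjusted p = 0.605), though it was with TPM (-0.29) or quantile (-0.30) scaling. IsoL was above Model (0.40 ± 0.09) with libraries from 138 to 214, though not called with TPM scaling (0.28, limma adjusted p = 0.0558). Its difference from Blank in IsoL (0.34 ± 0.09) was not called without scaling factors (0.15) and was -0.01 with TPM scaling. Serpinb8, whose human counterpart inhibits furin, had 32.9 ± 1.07, 24.8 ± 1.04 and 38.1 ± 4, fell by 0.41 ± 0.06 in Model against Blank and rose by 0.62 ± 0.06 in IsoL against Model, and its difference between IsoL and Blank (0.21 ± 0.06) was -0.12 with TPM scaling.

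Serpinb3a, Serpinb3b and Serpinb11 departed from that order. Serpinb3a and Serpinb3b are mouse counterparts of the human squamous cell carcinoma antigens, and members of this group inhibit cysteine as well as serine proteases. Serpinb3a read 5.21, 4.46, 3.04 and 4.02 in the Blank libraries, 29.2, 42.4, 38.5 and 37.8 in those of Model, and 36.3, 22.2, 25.8 and 41.2 in those of IsoL. All treated libraries were above all Blank ones, and Model and IsoL overlapped. Serpinb3a was 8.82-fold higher in Model than in Blank (log2 change 3.14 ± 0.18, edgeR adjusted p = 5.6e-13). Its difference between IsoL and Model was not called (-0.24 ± 0.14, edgeR adjusted p = 0.186) but was without IsoL replicate 4 (-0.40, 0.018). Serpinb3b read 148, 144, 144 and 152 in the Blank libraries, 96.7, 106, 97.8 and 92.9 in those of Model, and 71.6, 69.5, 60.3 and 78.9 in those of IsoL. Here the order was Blank, Model, IsoL from high to low, with no overlap. Serpinb3b fell by 0.58 ± 0.06 in Model against Blank and fell by 0.49 ± 0.06 in IsoL against Model. Between 14.7% and 15.0% of the 50-base words of either gene occur in another, and Serpinb3b overlaps Serpinb3c by 7161 bases, so the counts of this subfamily are less certain. Serpinb11, in the mouse an inhibitor of trypsin-like proteases, was highest in IsoL. Serpinb11 read 9.69, 8.4, 8.77 and 7.57 in the Blank libraries, 10.4, 14, 12.8 and 13.5 in those of Model, and 34.6, 38.1, 27.7 and 39.3 in those of IsoL. No group overlapped another. Serpinb11 rose by 0.56 ± 0.11 in Model against Blank and rose by 1.46 ± 0.10 in IsoL against Model.

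The promoters of Serpinb3a and Serpinb3b are shown as a pair of near copies whose genes went in opposite directions in Model against Blank. Their aligned parts were 93.1% identical over 276 bases. Capitals mark the TATA box letters TATAAA, found in 15.7% of all genes. They also mark, in Serpinb3a alone of the 28 tested serpins with a window, a loose form of the vitamin D receptor motif on the other strand, found in 0.814% of all genes.
Serpinb3a, chr1:107052254-107052553, minus strand: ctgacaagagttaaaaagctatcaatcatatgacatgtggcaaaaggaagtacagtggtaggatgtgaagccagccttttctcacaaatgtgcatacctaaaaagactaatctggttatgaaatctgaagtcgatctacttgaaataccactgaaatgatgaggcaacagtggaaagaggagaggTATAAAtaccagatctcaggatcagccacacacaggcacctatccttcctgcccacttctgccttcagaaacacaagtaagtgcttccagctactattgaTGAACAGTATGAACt
Serpinb3b, chr1:107161065-107161364, minus strand: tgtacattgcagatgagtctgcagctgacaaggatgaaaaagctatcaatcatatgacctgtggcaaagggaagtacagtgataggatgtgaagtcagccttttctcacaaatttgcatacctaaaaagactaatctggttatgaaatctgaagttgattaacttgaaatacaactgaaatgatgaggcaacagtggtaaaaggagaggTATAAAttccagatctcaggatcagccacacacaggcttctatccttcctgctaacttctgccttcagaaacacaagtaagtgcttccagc
The vitamin D receptor letters lay at 36 to 49 bases after the start of Serpinb3a and past the point where the window of Serpinb3b ends, so the pair was not compared there. Both motifs were among the 11 searched, and these matches were picked after they were seen. Binding to them was not tested.

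The promoters of the clade B genes of chromosome 1 are also shown for a loose form of the AP-1 motif, whose usual form has G or C in the middle. TGANTCA, with any base there, was found in a window of 7 of the 9 genes of the group that passed and had one, in none of the 9 of clade A and in none of the 7 of the B1, B6 and B9 families, beside 8.97% of all genes. With G or C only in the middle, 2 of the 9 had a match (Serpinb7 and Serpinb8), beside 5.95% of all genes, so the count of 7 rests on the loose form. The stretches are shown with the loose match in capitals.
Serpinb5, chr1:106861018-106861058, plus strand: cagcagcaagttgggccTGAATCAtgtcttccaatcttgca
Serpinb12, chr1:106934387-106934427, plus strand: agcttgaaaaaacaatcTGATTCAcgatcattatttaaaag
Serpinb11, chr1:107362116-107362156, plus strand: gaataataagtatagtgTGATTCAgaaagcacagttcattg
Serpinb7, chr1:107422627-107422667, plus strand: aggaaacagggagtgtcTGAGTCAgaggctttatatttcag
Serpinb2, chr1:107511312-107511352, plus strand: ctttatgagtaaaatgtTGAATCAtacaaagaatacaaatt
Serpinb10, chr1:107528932-107528972, plus strand: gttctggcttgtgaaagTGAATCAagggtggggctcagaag
Serpinb8, chr1:107589966-107590006, plus strand: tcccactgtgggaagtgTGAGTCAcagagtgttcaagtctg
Serpinb3a and Serpinb3b had no match in their windows, and Serpinb13 had no window. Of the 7 genes with a match, 5 (Serpinb5, Serpinb7, Serpinb8, Serpinb10 and Serpinb12) fell in Model against Blank, Serpinb11 rose and Serpinb2 was not called. The motif and its stricter form were picked after the matches were seen.

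**Figure D4:**
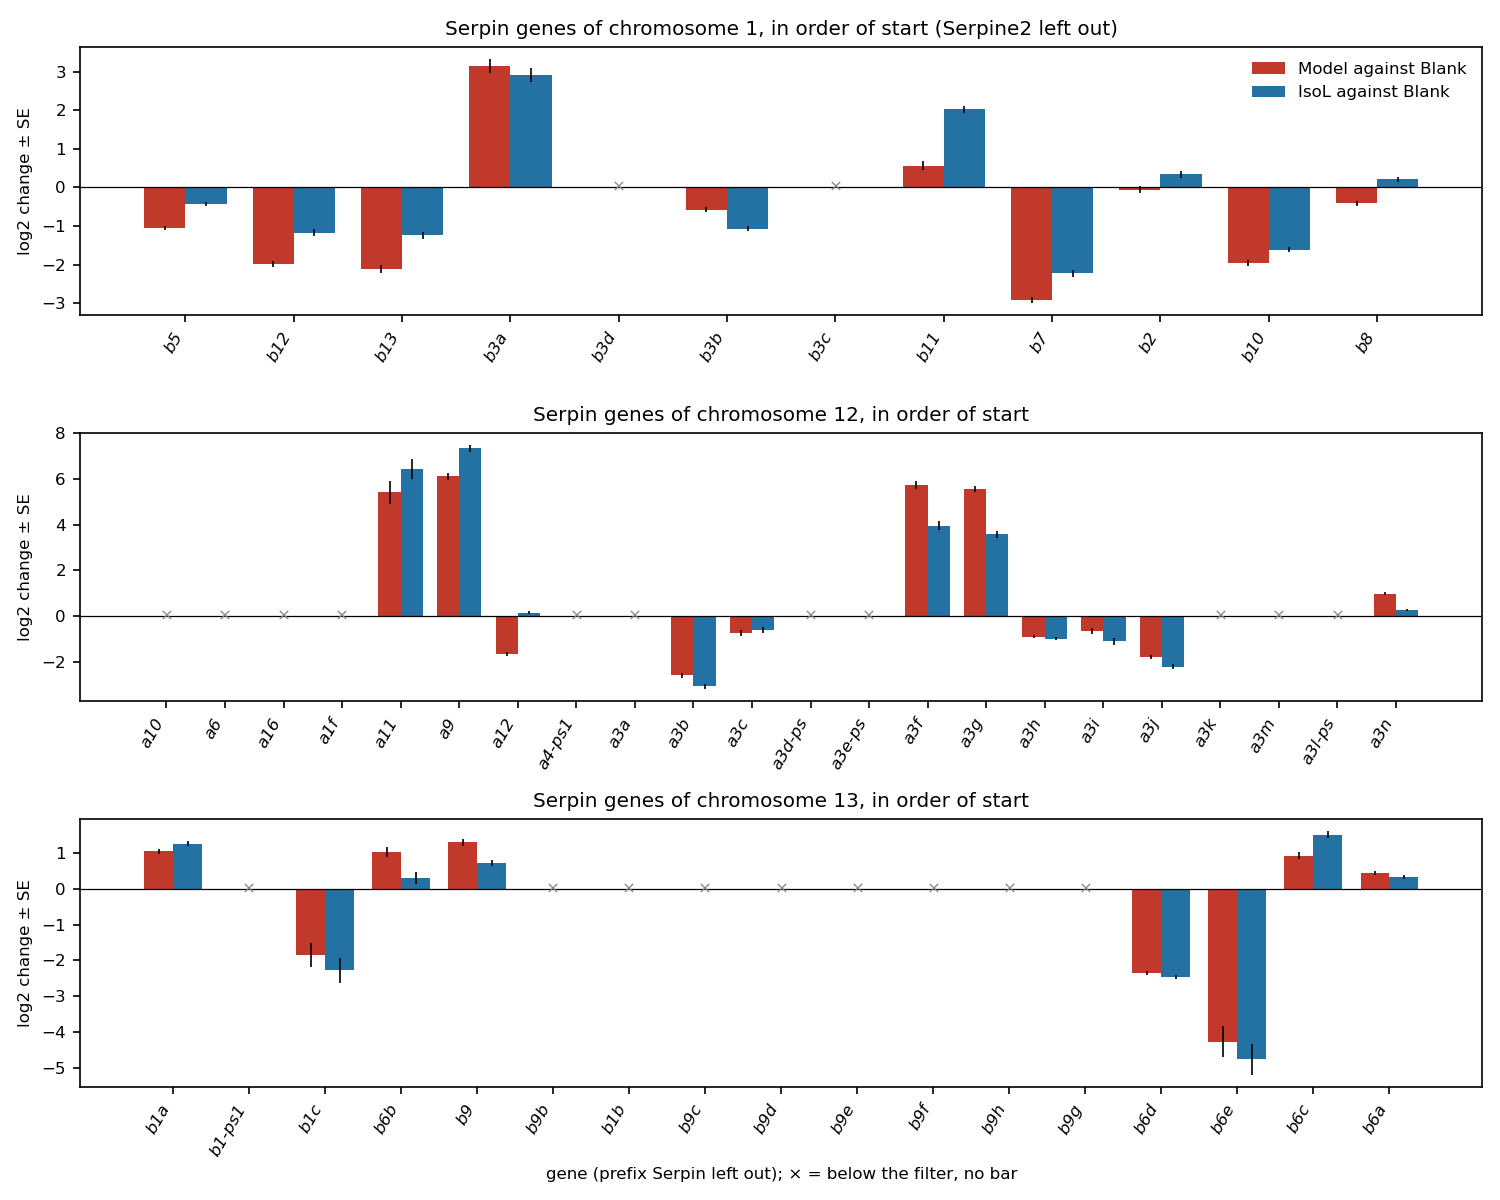
log2 change ± SE (vertical axis) of the serpin genes of chromosomes 1, 12 and 13 in the order of their starts, for Model against Blank and IsoL against Blank, with a cross for genes below the filter. Each cluster holds runs of genes that fell and genes that rose: on chromosome 12 Serpina3f and Serpina3g, with 5.72 and 5.55 in Model against Blank, lie between Serpina3c (-0.73) and Serpina3h (-0.90), and on chromosome 13 Serpinb6d (-2.35) and Serpinb6e (-4.28) lie next to Serpinb6c (0.93).

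The B1, B6 and B9 families of clade B lie together on chromosome 13 (17 genes, 33026075 to 34186777). Several of them guard leukocytes against their own granule proteases. Of the 8 that passed, 5 rose and 3 fell in Model against Blank, and in IsoL against Model 2 rose, 3 fell and 3 were not called. Over all genes 35.3% rose and 34.9% fell in Model against Blank, and 24.1% rose and 25.1% fell in IsoL against Model. Leukocyte markers moved in the same comparisons: 14 of 14 tested neutrophil and 14 of 14 monocyte and macrophage markers rose in Model and fell in IsoL against Model, and of 12 tested T and NK cell markers 9 rose and 2 fell in Model and 8 fell in IsoL against Model. The 14 monocyte and macrophage markers summed to 230 to 246 (Blank), 1839.58 to 2024.85 (Model) and 941 to 1148.81 (IsoL), and the 14 T and NK cell markers to 24.6 to 29.8, 52.6 to 57.9 and 32.5 to 41.5. Their part in the serpin values was not tested.

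Serpinb9 (ENSMUSG00000045827, chromosome 13, 33187233 to 33201940) encodes the inhibitor of granzyme B that protects cytotoxic cells from their own granules. Serpinb9 read 3.54, 3.46, 3.66 and 3.07 in the Blank libraries, 9.15, 8.66, 7.94 and 8.21 in those of Model, and 5.82, 4.82, 5.66 and 6.52 in those of IsoL. The 3 groups did not overlap, with Model highest and Blank lowest. Serpinb9 rose by 1.30 ± 0.09 in Model against Blank and fell by 0.57 ± 0.08 in IsoL against Model (edgeR adjusted p = 1.3e-11 and 6.3e-06). Its promoter is shown because it holds GAAA, any 2 bases and GAAA, the letters of an interferon response element, on the other strand at -46 to -37, a match found in 2 of the 7 genes of this group with a window (Serpinb6a is the other) and in 3.99% of all genes. The motif was among the 11 searched, and this match was picked after it was seen.
Serpinb9, chr13:33004291-33004590, plus strand: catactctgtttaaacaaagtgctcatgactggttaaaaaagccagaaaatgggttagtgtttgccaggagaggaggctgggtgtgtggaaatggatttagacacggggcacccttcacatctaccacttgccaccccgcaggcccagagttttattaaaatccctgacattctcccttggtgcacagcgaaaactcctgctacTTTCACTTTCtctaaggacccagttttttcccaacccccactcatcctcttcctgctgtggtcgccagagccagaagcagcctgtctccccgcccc
Gzmb, the target of Serpinb9, had a mean of 0.407 in Blank, 20.8 in Model and 7.12 in IsoL. It rose by 5.66 ± 0.16 in Model against Blank and fell by 1.55 ± 0.10 in IsoL against Model.

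Serpinb1a, an inhibitor of neutrophil elastase and cathepsin G, was higher in both treated groups. Serpinb1a read 14.5, 15.6, 13.4 and 12.8 in the Blank libraries, 28.5, 27.2, 29.7 and 31.5 in those of Model, and 35.8, 32.9, 31.4 and 36.2 in those of IsoL. Blank was below both, and Model and IsoL overlapped slightly. Serpinb1a rose by 1.05 ± 0.07 in Model against Blank. Its smaller difference between IsoL and Model (0.22 ± 0.06) was not called with TPM scaling (0.12, limma adjusted p = 0.129) or on the log2(FPKM + 1) scale (0.16). Serpinb6c had the same order without overlap. Serpinb6c read 7.77, 7.07, 8.1 and 7.85 in the Blank libraries, 14.2, 15.5, 13.1 and 15.7 in those of Model, and 18.8, 21.9, 23 and 24.9 in those of IsoL. It rose by 0.93 ± 0.10 in Model against Blank and rose by 0.60 ± 0.09 in IsoL against Model. Serpinb6b, a reported inhibitor of granzyme A, was low, with 1.3 ± 0.189, 2.67 ± 0.239 and 1.62 ± 0.147, and rose by 1.03 ± 0.15 and fell by 0.72 ± 0.15. Its difference between IsoL and Blank (0.31 ± 0.16) was not called (edgeR adjusted p = 0.0827), was called without Blank replicate 1 (0.40, 0.0417) and was -0.01 with TPM scaling.

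Serpinb6a, an inhibitor of cathepsin G, had 38.8 ± 1.92, 53 ± 1.14 and 48.6 ± 2.15. It rose by 0.45 ± 0.05 in Model against Blank. Its difference between IsoL and Model (-0.12 ± 0.05, edgeR adjusted p = 0.0334) was lost without Model replicate 1, 3 or 4 or IsoL replicate 1 or 2 (adjusted p 0.0566 to 0.109), and its difference between IsoL and Blank (0.33 ± 0.05) was -0.0033 with TPM scaling. Ripk1 and Nqo2 overlap it on the opposite strand, and whether the counting used strand is not given. Serpinb6d, Serpinb6e and Serpinb1c fell in Model. Serpinb6d (ENSMUSG00000047889, chromosome 13, 33845388 to 33855564) held 66.4% of the summed level of the B1, B6 and B9 families in Blank. Serpinb6d read 135, 144, 142 and 128 in the Blank libraries, 25, 27.2, 28.7 and 27.2 in those of Model, and 21.5, 27.4, 24.8 and 25.3 in those of IsoL. Blank stood far above both treated groups, which overlapped. Serpinb6d was 5.08-fold lower in Model than in Blank (log2 change -2.35 ± 0.06, edgeR adjusted p = 8.4e-19). Its difference between IsoL and Model was not called (-0.13 ± 0.07), though it was without IsoL replicate 2 (-0.18, edgeR adjusted p = 0.0381). That difference was also called without scaling factors (-0.18) and with TPM scaling (-0.22). Serpinb6e had 213 counts in Blank, 9 in Model and 7 in IsoL, a ratio of 0.0492 in Model against Blank (95% counting interval 0.0222 to 0.0952). Serpinb1c had 1.61 ± 0.376, 0.447 ± 0.28 and 0.328 ± 0.119 and fell by 1.84 ± 0.34 in Model against Blank.

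Of the 6 members of clades C to I, 3 passed the filter. Serpinh1 (ENSMUSG00000070436, chromosome 7, 98994583 to 99002446) is a chaperone of procollagen in the endoplasmic reticulum and inhibits no protease. Serpinh1 read 36.3, 36.3, 36.8 and 33.5 in the Blank libraries, 55.7, 56.3, 57.6 and 61.5 in those of Model, and 48.6, 44.6, 51.2 and 41.7 in those of IsoL. The 3 groups did not overlap, with Model highest and Blank lowest. Serpinh1 rose by 0.69 ± 0.06 in Model against Blank and fell by 0.31 ± 0.06 in IsoL against Model, and its difference between IsoL and Blank (0.38 ± 0.06) was not called with TPM scaling (0.05, limma adjusted p = 0.492). Of 15 tested partners in collagen folding, 11 rose and 3 fell in Model against Blank, beside 35.3% and 34.9% of all genes. In IsoL against Model 1 rose and 9 fell, beside 24.1% and 25.1%. Plod1, a lysyl hydroxylase, rose by 1.10 ± 0.08 and fell by 0.64 ± 0.08 in these comparisons, and P4ha1, a prolyl hydroxylase subunit, rose by 0.79 ± 0.07 and fell by 0.87 ± 0.07. Their relatives went the other way in Model against Blank: Plod2 fell by 0.65 ± 0.08 and P4ha2 by 0.82 ± 0.07. The 11 fibroblast markers summed to 1024.85 to 1098.61 (Blank), 1335.00 to 1426.02 (Model) and 1091.03 to 1231.54 (IsoL), and their part in the values of Serpinh1 was not tested.

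Serpine2, protease nexin, an inhibitor of thrombin and urokinase, had 8.38 ± 0.244 in Blank, 12.2 ± 0.466 in Model and 7.28 ± 0.757 in IsoL. It rose by 0.54 ± 0.06 in Model against Blank and fell by 0.75 ± 0.06 in IsoL against Model, and fell by 0.21 ± 0.06 in IsoL against Blank. Serpinf1, pigment epithelium-derived factor, which inhibits no protease, had 39.7 ± 3.37, 34.7 ± 0.507 and 37.4 ± 4.77. Its small fall in Model against Blank (-0.20 ± 0.07, edgeR adjusted p = 0.0201) was lost without Blank replicate 3 (0.1). IsoL against Model was not called (0.11 ± 0.07). IsoL against Blank was not called either (-0.09 ± 0.07), but was without IsoL replicate 3 (-0.17, edgeR adjusted p = 0.0227). It was also called lower without scaling factors (-0.28), with TPM scaling (-0.42) and on the log2(FPKM + 1) and log2(FPKM + 0.1) scales (-0.28 in both).

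Of the 26 members below the filter, 10 had at least 10 counts in some group. In an exact two-sided permutation test of 4 against 4 libraries, run for each of these 10, 7 reached p = 0.0286 in Model against Blank, the smallest this design allows, and Benjamini-Hochberg adjustment over the 10 gave 0.0408 for these 7. That p is reached when the libraries of the 2 groups do not overlap, which held for 67.4% of all genes that passed the filter. The 10 were picked by their counts in any group, so some entered only through a group where they are high. Serpini1, neuroserpin, an inhibitor of tissue plasminogen activator, had 53 counts in Blank, 149 in Model and 120 in IsoL, a ratio of 3.28 in Model against Blank (95% counting interval 2.38 to 4.57). Serpinb9b had 67, 137 and 131 counts, and Serpina3m had 17, 40 and 31. Serpina10, the protein Z-dependent inhibitor, had 3, 78 and 59 counts, a ratio of 30.3 (9.99 to 150). Serpinb3c had 2, 11 and 12, and Serpinb3d had 0, 17 and 18. With Blank set to a floor of 3 counts over the group, Serpinb3d was 6.6-fold higher in Model. The lower 95% counting limit of its ratio was 4.81. Serpina4-ps1, a pseudogene by name, went from 46 counts to 6 and 7. The other 3 did not reach it: Serpina3e-ps had 38, 31 and 16 counts, Serpina6, the corticosteroid-binding globulin, 30, 27 and 21, and Serpinb1b 20, 22 and 21. None of the 10 passed after adjustment in the other comparisons. In IsoL against Model, Serpini1 alone had an exact p of 0.0286 (adjusted 0.286), and in IsoL against Blank Serpina10, Serpina4-ps1, Serpinb3c, Serpinb3d and Serpini1 had it (exact permutation test, adjusted 0.0571). The intervals cover counting error only, since no molecular identifiers are described.

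The proteases that serpins act on were also measured, through lists of genes with those roles. For the counts that follow, 35.3% of all genes rose and 34.9% fell in Model against Blank. In IsoL against Model 24.1% rose and 25.1% fell. All 12 papain-type and caspase cysteine proteases tested rose in Model against Blank, and 9 fell and 3 rose in IsoL against Model. Ctss, cathepsin S, rose by 3.72 ± 0.06 and fell by 1.53 ± 0.06, and Ctsb, cathepsin B, a target of Serpina3g, rose by 2.26 ± 0.05 and fell by 0.80 ± 0.05. Of 9 granule serine proteases tested, 8 rose in Model against Blank and none fell, and 2 rose and 4 fell in IsoL against Model. Of 14 epidermal serine proteases 10 rose and 4 fell in Model against Blank, and all 14 rose in IsoL against Model. Klk13, a kallikrein, rose by 5.03 ± 0.09 and by a further 0.96 ± 0.07. In the plasminogen system 6 of 8 rose and 1 fell in Model, and 6 fell in IsoL against Model. Plaur, the urokinase receptor, rose by 6.13 ± 0.09 and fell by 2.75 ± 0.07. Inhibitors outside the serpin family were split, with 8 higher and 7 lower of 15 in Model against Blank and 8 higher and 4 lower in IsoL against Model. Slpi, secretory leukocyte protease inhibitor, rose by 5.94 ± 0.16 and by a further 0.55 ± 0.10, and Wfdc12 rose by 5.11 ± 0.10 and by a further 1.33 ± 0.06. Ctsb and Klk7 are named for their known link to a serpin, after their values were seen.

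The serpins varied more between IsoL libraries than between those of the other groups. The 1 fit of 3 groups gives each gene a common spread, so the SEs of comparisons with IsoL may be too small. Among serpins with a mean of 5 or more, the median coefficient of variation was 3.85% in Blank (21 genes), 5.98% in Model (24) and 11.2% in IsoL (25), beside 4.18%, 4.82% and 7.55% over all genes at that level. Serpinb5 was the steadiest in Blank with 1.32%, and Serpinb3a the least steady in IsoL with 28.3%. Of the 32 tested serpins, the libraries of Model and Blank did not overlap in 31 (67.4% of all genes), those of IsoL and Model in 22 (42.7%) and those of IsoL and Blank in 27 (63.7%).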

How the data were processed

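RNA from mouse ear was sequenced by the authors in 12 libraries. Per the labels' protocols, poly-T beads took mRNA from Trizol-extracted RNA, and random primers started the cDNA. Per the submitters' processing notes, the tools were fastp 0.22.0, HISAT2 2.1.0 and HTSeq 0.9.1; no source used here gives their roles, the build, the annotation or the use of strand. The deposited table holds 56691 genes with the read count and FPKM of each library, and 100% of the authors' deposited FPKM values matched, to the decimals deposited, the count divided by exonic length and library total.

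The counts were tested in edgeR 4.0.16 (R 4.3.3) with TMM scaling and the quasi-likelihood test, 1 fit of 3 groups, no covariate, on the 15403 genes that reached an FPKM of 1 in 4 or more of 12 libraries. Benjamini-Hochberg adjustment ran over all of these genes, at a threshold of 0.05, and tests were two-sided. The script was tested on simulated data. DESeq2 1.42.0, limma 3.58.1, other scalings, pseudocounts of 1 and 0.1, other filters, a replicate block and leaving out each library were alternatives. The members, lists and tests were chosen with earlier results of these data known.

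Every serpin that passed the filter is named. Values of all libraries are given for the 20 that changed by 1 or more on the log2 scale in some comparison with a mean of 5 or more in the highest group, or that were the highest of their clade group; members below the filter are named with at least 10 counts in a group, and at most 4 genes per other list. Promoter windows of 300 bases come from RefSeq (GRCm38.p6), where 45 of the 58 genes had one and 28 of the 32 that passed (not Serpina3h, Serpina9, Serpinb13 and Serpinb1a); other coordinates are those of the deposited table, and the builds were not mixed. Motifs were counted per gene over all its windows, and the first window in the table is printed. Those searched but not described above are C/EBP, p63, GATA, KLF and forkhead. Shared words of 50 bases were counted in GENCODE M21 transcripts.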

Additional observations from a re-analysis of the deposited data

Results flagged for a closer look

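Among 96 combinations of a tested serpin and a group, 3 had a library far from the other 3 of its group by Dixon's test at the 95% level, where chance gives about 1 in 20, or about 4.8. Serpina3j read 9 in Model replicate 3 and 6.37 to 6.62 in the other Model libraries. Serpinb7 read 145 in Blank replicate 4 and 139 to 140 in the others. Serpinh1 read 33.5 in Blank replicate 4 and 36.3 to 36.8 in the others. All values are TMM-scaled FPKM. None of the 3 changed a call in Model against Blank when that library was left out.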

How the results depend on the processing

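Across 24 alternatives, 30 of the 32 tested serpins kept their direction and their side of the threshold in Model against Blank, 25 in IsoL against Model and 24 in IsoL against Blank. The count called higher in IsoL against Blank was 15 and became 9 with TPM scaling. In that comparison, values below 0 against a reported value above 0 were found for Serpina12 without scaling factors (-0.04), with TPM (-0.19) and quantile scaling (-0.0025) and on the log2(FPKM + 1) and log2(FPKM + 0.1) scales (-0.05 in both). With TPM scaling they were also found for Serpina3n (-0.06), Serpinb2 (-0.01), Serpinb6a (-0.0033), Serpinb6b (-0.01) and Serpinb8 (-0.12). TPM scaling moved the median of all genes to -0.22 in Model against Blank, -0.29 in IsoL against Blank and -0.08 in IsoL against Model, so these values lie above that median. The share of all calls that were higher was 50.3% in Model against Blank, 49% in IsoL against Model and 51.8% in IsoL against Blank, and 32.4%, 33.4% and 27.4% with TPM scaling.

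Leaving out each library in turn gave 14 higher and 16 to 17 lower in Model against Blank, 13 and 11 to 12 in IsoL against Model, and 14 to 15 and 15 to 16 in IsoL against Blank. Serpinb6e in IsoL against Blank was -4.77 and -5.51 without IsoL replicate 2. On the log2(FPKM + 1) scale, Serpina11, Serpina3f and Serpina3g rose by 1.14, 3.23 and 4.10 in Model against Blank, and Serpinb6e and Serpinb1c fell by 1.51 and 0.94; the pseudocount shrinks the change of low genes by construction.

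Same-numbered libraries did not deviate together (correlations of -0.132 to 0.0324 over 12 pairs, with 2 of 12 libraries closest to their own number), so no pairing by number was seen. Such a check cannot exclude that same-numbered libraries were handled together. With the replicate number as a block, 14 serpins were higher and 17 lower in Model against Blank, 13 and 11 in IsoL against Model, and 15 and 15 in IsoL against Blank. Serpinb6a in IsoL against Model was the call lost (-0.12, edgeR adjusted p = 0.0508). Depth limits the members below the filter, and 4 libraries a group limit the exact test to p = 0.0286.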

Other observations

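Library IsoL replicate 3 held the lowest IsoL value of 9 of the 10 tested clade B serpins of chromosome 1, such as Serpinb11 with 27.7 beside 34.6 to 39.3, and the highest of all 3 tested members of clades E, F and H. IsoL replicate 4 held the highest IsoL value of 7 of the 10. The basal and suprabasal keratinocyte markers summed to 12151.28 in replicate 3 and 11448.75 to 13193.80 over the group, the activated keratinocyte markers to 8880.53, the lowest of the group, and the fibroblast markers to 1231.54, the highest. The part of these markers in the serpin values was not tested.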
